A study of Mus musculus with 12 samples.

Results

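Common lymphoid progenitors (CLPs) from mice without the lncRNA Firre were compared with those of wild-type (WT) mice. The comparison used 8 of the 12 RNA-seq libraries of the series, 4 WT and 4 ∆Firre, each from 1 male mouse. Both groups were sorted from bone marrow as lineage-negative cells with low Sca1, low c-Kit, and surface IL7Rα. ∆Firre mice carry a germline deletion of the Firre gene body and its promoter, made by crossing a floxed allele from 1 targeted embryonic stem cell line to a CMV-Cre deleter, so that the locus is lost in every tissue and 1 loxP site remains. The Cre transgene was then bred out and the line was crossed back to C57BL/6J, and both groups were adult mice without a transgene. The remaining 4 libraries, from dox-fed Firre rescue mice, were not used here. Of the 47643 genes in the table, 24428 were above 0 in at least 1 of the 8 libraries, and the 14647 with a mean of at least 1 TPM (reads scaled by gene length and by library total) over the 8 libraries were tested. Values of single libraries are given below for WT mice 6, 8, 10, and 11 and then for ∆Firre mice 8, 9, 11, and 12.

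CLPs are bone marrow progenitors that give rise to B cells, T cells, and natural killer cells, and they depend on the cytokine IL-7 and the receptor kinase Flt3. Firre is a nuclear lncRNA transcribed from the X chromosome that is known to bind the nuclear matrix protein hnRNP U and to contact other chromosomes. The comparison asks which genes and groups of genes differ with it in this progenitor.

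Between 10990679 and 18174542 reads per WT library and between 14371637 and 17598409 reads per ∆Firre library were recovered from the spacing of the TPM values, and 1 read on a gene of 1 kb was worth 0.167 to 0.284 TPM. The sort genes were abundant in both groups. Il7r, the IL-7 receptor, was at 424 ± 31.2 TPM in WT against 423 ± 74.8 TPM in ∆Firre (mean ± SD, n = 4), Kit at 70.8 ± 10.1 and 75.1 ± 5.11 TPM, Flt3 at 570.3 ± 77.8 and 555 ± 35.02 TPM, and Ly6a, which encodes Sca1, at 34.3 ± 7.26 and 42.7 ± 4.65 TPM. Markers of other cells were also present, and the summed TPM of 6 basophil or mast cell markers ran from 1052 to 8998 in WT. Bulk libraries cannot tell fewer cells of a type from less RNA per cell. The library numbers in the labels form 2 ranges, each with 2 WT and 2 ∆Firre libraries, and within-range differences are given beside the main results, first for WT 8, WT 11, ∆Firre 8, and ∆Firre 11, and then for the other 4. The labels do not say what the ranges stand for.

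Firre, the targeted gene (ENSMUSG00000085396.7), lies on the minus strand of chromosome X of GRCm38, chrX:50563120-50635321, and is annotated as a lncRNA. Its levels were 26.4, 31.6, 25.2, and 30.2 TPM in the WT libraries, from 917 to 1217 reads, whereas no read was counted in any ∆Firre library. Set against 3 reads per library, the highest level that a count of 0 allows, Firre was at least 380.2-fold lower in ∆Firre. The difference in log2(TPM + 1) was −4.87 (standard error 0.19, limma adjusted p = 1.08e-05), a size that the added 1 sets, and the two-sided exact permutation test gave p = 0.0286, the smallest p that 70 labelings of 8 libraries can give. Every library thus matched its label for the targeted gene. The sequence around the deleted start site, 250 bases before to 50 after it, is shown because it is the promoter that the ∆Firre allele lacks, taken from RefSeq on GRCm38 (chrX:50635272-50635571, minus strand) with each CG dinucleotide in capitals.
Firre promoter: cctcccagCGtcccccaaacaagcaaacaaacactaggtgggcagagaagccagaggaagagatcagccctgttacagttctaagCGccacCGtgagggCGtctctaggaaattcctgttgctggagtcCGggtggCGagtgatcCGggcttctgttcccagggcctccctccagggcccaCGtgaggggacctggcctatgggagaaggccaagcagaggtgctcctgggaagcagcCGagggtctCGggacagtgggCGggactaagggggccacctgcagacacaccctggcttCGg
This window holds CG, which reads alike on both strands, 12 times at a GC content of 62.7%. Over all 32851 RefSeq promoters of that length, 94.6% hold at least 1 CG, with a median of 7, and the median was 21 over the 9602 promoters of genes tested here.

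Genes beside the locus did not pass the test. Of 16 listed neighbors of Firre, 5 had a mean of at least 1 TPM and none was higher or lower at an unadjusted limma p under 0.05. Stk26, a kinase gene and the nearest that was tested, was at 167 ± 5.11 TPM in WT against 169 ± 11.8 TPM in ∆Firre (mean ± SD, n = 4), a difference of 0.01 with a 95% interval of −0.14 to 0.17. Rap2c, a small GTPase gene, differed by −0.07 (95% interval −0.31 to 0.16), and Mbnl3, a splicing regulator gene, by −0.04 (95% interval −0.44 to 0.37). Outside that list and within 1 Mb, the pseudogene Gm14719 was at 1.24, 12.5, 0, and 0 TPM in WT and at 0 in every ∆Firre library, a difference of −1.23 (95% interval −3.05 to 0.59) that rested on WT 8. Of 5 genes known as contacts of the Firre locus on other chromosomes, 4 were tested, and none of them was higher or lower as deposited. After the GC correction 1 of the 4 was higher, against 1.92% of all genes. By median ratio 1 was, against 3.13%.

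Across all 14647 genes, 2 (0.0137%) passed an adjusted p of 0.1, Firre and the antibody heavy-chain variable gene Ighv1-69. At an unadjusted p under 0.05, 234 genes (1.6%) were higher and 1048 (7.16%) were lower in ∆Firre, and the 4 ∆Firre libraries all lay above the 4 WT libraries for 120 genes (0.819%) and all below them for 656 (4.48%). The median difference over all genes was −0.06 in log2(TPM + 1). After rescaling by the median ratio between libraries it was 0.01, and the split moved to 458 genes higher (3.13%) and 585 lower (3.99%). Quantile normalization gave 401 higher (2.74%) and 657 lower (4.49%). All 234 higher genes and all but 1 of the 1048 lower genes had the same sign in both ranges of library numbers, although the ranges share the libraries that chose them. Without WT 6, 5 genes were called and 354 were higher, without WT 8 or without ∆Firre 8, 3 genes were called, and without any 1 of the other 5 libraries, only Firre was.

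Among named genes, antibody genes held the largest differences above WT. Plasma cells and plasmablasts secrete antibody made of a heavy chain and a kappa or lambda light chain, and each antibody joins 1 of many variable genes to a constant gene. Of the 10 largest positive differences among named genes with a mean of at least 5 TPM and no overlap between groups, 6 were heavy-chain or kappa segments, namely Ighv1-69, Ighv1-64, Ighv1-50, Igkv6-23, Igkv6-15, and the joining segment Igkj5. All of the 6 but Igkj5 were named only by study tables ordered by the study's own results, and 1235 tested genes stayed unnamed. This tally is therefore not an even one. Igkj5 was at 70.1, 0, 61.0, and 36.2 TPM in WT, where WT 8 held none, and 92.8, 143, 211, and 102 TPM in ∆Firre, and its difference of 2.70 was 1.26 without WT 8. Of the 6 segments, Ighv1-69 was called. It stood at 19.2, 5.67, 7.30, and 11.1 TPM in WT against 92.3, 385, 158, and 177 TPM in ∆Firre, a difference of 4.05 (standard error 0.45, limma adjusted p = 0.0623) that was 3.76 and 4.34 within the ranges. Its adjusted p was over 0.1 without a trend (0.212), without a filter (0.279), with the replicate block (0.451), with a robust trend (0.222), with limma-voom on the recovered reads (0.494), and without WT 8 (0.217), WT 10 (0.423), WT 11 (0.224), ∆Firre 9 (0.143), ∆Firre 11 (0.389), or ∆Firre 12 (0.236). Ighv1-64 reached 95.7, 511, 525, and 201 TPM in ∆Firre against 1.04, 43.5, 1.69, and 1.61 TPM in WT, where WT 8 stood apart from the other 3. Its limma adjusted p was 0.395, and 0.0178 without WT 8, the highest WT library. Without any 1 of the other libraries it was between 0.389 and 0.756, and it was 0.591 with limma-voom and 0.827 with the replicate block. Of 31 heavy-chain variable genes tested, 5 were named by the annotation and 26 only by study tables ordered by the study's own results. All 5 leaned higher, and 1 was higher at an unadjusted limma p under 0.05. These 5 summed to 156, 67.8, 0, and 1.24 TPM in WT and 243, 246, 613, and 143 TPM in ∆Firre. A gene low in WT can pass the filter through ∆Firre alone, so their leaning is not an even measure. Of the 26, 22 leaned higher and 4 lower, and 9 were higher and 1 was lower. Several of the 9, such as Ighv1-22, Ighv1-33, and Ighv1-4, were at 0 TPM in every WT library and passed the filter only through ∆Firre. The shares of all genes, 1.6% higher and 7.16% lower, are thus no even measure for these counts. The lower one was Ighv1-12, at 57.2, 0.737, 14.6, and 198 TPM in WT against 1.59, 3.02, 6.63, and 0 TPM in ∆Firre, with overlap (difference −2.99, limma adjusted p = 0.555). Among 41 kappa variable genes that were tested and named by the annotation, 33 leaned higher and 8 lower in ∆Firre, and 2 (4.88%) were higher at an unadjusted p under 0.05, against 1.6% of all genes, with a median difference of 1.65. That count was 7 without ∆Firre 12, 4 without ∆Firre 8 or ∆Firre 9, and 5 without WT 6. Of 58 kappa variable genes named by the annotation, these 41 passed the filter. Those low in WT could pass it through ∆Firre alone, so the counts and the median are not an even measure. The summed TPM of these 41 genes was 1787, 2469, 1669, and 1647 in WT and 4066, 6060, 5845, and 2272 in ∆Firre, and ∆Firre 12 lay within the WT range. Another 23, Igkv6-23 and Igkv6-15 among them, were named only by the same study tables, so that they are not an even sample. Of these, 14 leaned higher and 9 lower, and 7 were higher at an unadjusted p under 0.05. Among the 7, Igkv11-125, Igkv3-1, Igkv4-51, Igkv4-53, and Igkv4-73 had a WT mean under 1 TPM and passed the filter only through ∆Firre. The 1.6% of all genes is thus no even measure for this count. Over all 64 the sum was 3738, 5066, 3474, and 5425 TPM in WT and 9631, 9886, 9719, and 7450.4 TPM in ∆Firre, without overlap. That sum holds the same 23 genes, so it is not an even measure either. Variable genes are close copies of each other, and reads may have been divided between them.

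The kappa constant gene Igkc does not depend on which kappa variable gene a cell uses. Of 4 light-chain constant genes tested, Igkc and Iglc2 were higher at an unadjusted p under 0.05, against 1.6% of all genes. Iglc1 and Iglc3 were not, with differences of 1.98 and 0.21. Of Igkc and Iglc2, only 1 passed without WT 8, WT 11, or ∆Firre 11. Igkc, the kappa constant gene on chromosome 6 (chr6:70726435-70726754, GRCm38), was at 8709, 14169, 10192, and 11967 TPM in WT against 22959.8, 32650.2, 30801, and 16161 TPM in ∆Firre, with no overlap. That difference of 1.16 (standard error 0.25) had an unadjusted limma p of 0.00116 and an adjusted p of 0.427, and it was 1.03 and 1.29 within the ranges. Iglc2, a lambda constant gene, overlapped between groups at 95.9, 65.0, 149, and 44.0 TPM in WT against 138, 119, 280.3, and 139 TPM in ∆Firre. Igha, the constant gene of IgA, went from 214 to 2593 TPM in WT and from 2268 to 6392 TPM in ∆Firre, a difference of 2.11 (standard error 0.67, limma adjusted p = 0.441) with overlap at WT 8. Ighm, the constant gene of IgM, which early B-lineage cells make first, was at 4153 ± 1302 TPM in WT against 4116 ± 810.3 TPM in ∆Firre (mean ± SD, n = 4), a difference of 0.02 (95% interval −0.51 to 0.55). Ighg1 reached 198 TPM in WT 10 and Ighg2c reached 136 TPM in ∆Firre 8, and both were under 7 TPM in every other library.

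Genes that mark the antibody-secreting cell rather than the antibody were in part higher. Of 25 such genes tested, 3 were higher at an unadjusted p under 0.05 and none was lower, with 4 above WT without overlap and a median of 0.21 against −0.06 for all genes. Of all genes, 1.6% were higher and 0.819% lay above WT without overlap. Without WT 6 or without WT 8, 5 of the 25 were higher, where 193 to 354 of all 14647 genes were with a library left out. After the GC correction 6 of the 25 were higher, against 1.92% of all genes. By median ratio 8 were, against 3.13% of all genes. Jchain, which links IgA and IgM into multimers, stood at 619, 1296, 868, and 911 TPM in WT against 1832.7, 3109.8, 2941, and 1369 TPM in ∆Firre (difference 1.29, limma adjusted p = 0.427). Tnfrsf17, the plasma cell survival receptor BCMA, was at 2.58, 0.349, 3.56, and 3.20 TPM and 8.81, 10.2, 11.1, and 5.91 TPM (difference 1.66, limma adjusted p = 0.427). Tent5c, a poly(A) polymerase of plasma cells, was at 5.55, 4.34, 4.57, and 5.60 TPM and 9.22, 13.6, 19.4, and 12.2 TPM (difference 1.24, standard error 0.22, limma adjusted p = 0.406), and it was 1.28 and 1.202 within the ranges. In these 3 genes all ∆Firre values exceeded all WT values. The plasma cell transcription factors did not pass an unadjusted p of 0.05. Xbp1 differed by 0.10 (95% interval −0.15 to 0.36) and Prdm1, which encodes Blimp-1, by 0.82 (95% interval −0.15 to 1.78) at under 8 TPM in every library. Sdc1, the surface marker CD138, was at 62.2 ± 19.8 TPM in WT against 52.6 ± 6.64 TPM in ∆Firre (mean ± SD, n = 4), and Mzb1, an antibody folding chaperone, differed by −0.04. The sum of 6 markers (Sdc1, Prdm1, Xbp1, Jchain, Tnfrsf17, and Mzb1) ran from 866 to 1622 TPM in WT and from 1607 to 3405 TPM in ∆Firre, most of it Jchain. Whether antibody-secreting cells in the sort account for these differences was not tested.

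**Figure D1:**
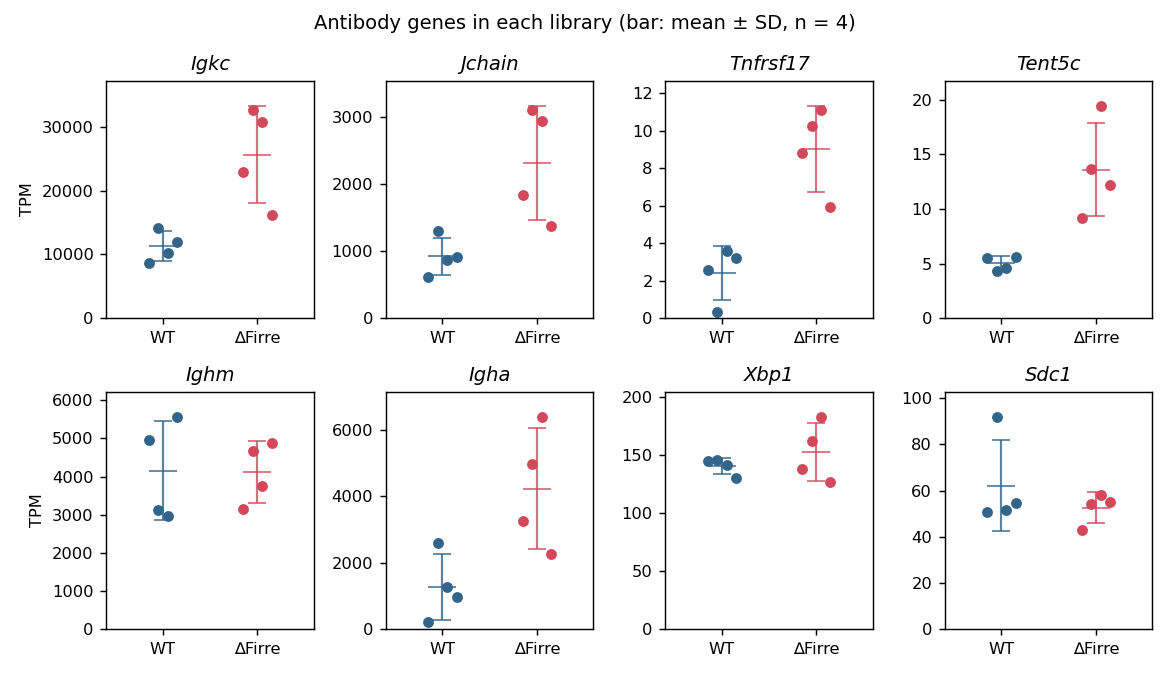
Levels in TPM (vertical axes, from 0) of 8 antibody and antibody-secreting cell genes in the 4 WT and 4 ∆Firre libraries. Points are libraries, and bars show the mean ± SD. Igkc, Jchain, Tnfrsf17, and Tent5c do not overlap between groups, whereas Ighm, Xbp1, and Sdc1 do, and Igha overlaps at 1 WT library.

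Small nucleolar RNAs differed on few reads, and the sign of their median turned without 1 library. Small nucleolar and Cajal body RNAs guide the modification of ribosomal and spliceosomal RNA, and they lack the long poly(A) tail that the poly(A)+ libraries selected. Of 58 tested, 6 were higher at an unadjusted p under 0.05 and none was lower, with a median of 0.35 as deposited and 0.15, with 2 lower, after a correction of each library for gene length. Of all genes, 1.6% were higher. Without WT 8 the median was −0.05, with 7 higher and 3 lower. The count was 3 without ∆Firre 11 and 3 without ∆Firre 12, and the median was 0.67 in one range of libraries and 0.00 in the other. Scarna3a rested on 6 to 10 reads in each ∆Firre library, against 2 reads in WT 6 and 0 in the other WT libraries. Its limma adjusted p was 0.303, and 0.00594 without WT 6, the only WT library with reads. Without any 1 of the other libraries it was between 0.377 and 0.736. Over the 1320 shortest genes, of 23 to 770 bases, 4.62% were higher, and over the 1320 longest 0.152% were. Mir142, the gene of a microRNA precursor of blood cells, was the opposite case, with 249.8, 213, 507, and 326 TPM in WT against 92.9, 187, 160.0, and 103 TPM in ∆Firre on 29 to 190 reads (difference −1.23, limma adjusted p = 0.427).

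The lower genes were rich in G and C. Exons of the 1018 lower genes with a GC value had a median GC content of 56.0%, against 49.5% over all 13196 genes with a value and 45.9% for the 164 higher ones. When genes were put in 10 equal bins by GC content, 0.985% were lower in the poorest bin and 28.0% in the richest, above 57.4% GC, where the median difference was −0.28. Each library was also described by how far its richest bin lay above its poorest bin, as a mean deviation from the average of all 8 libraries. That tilt was 0.24, 0.26, −0.05, and 0.17 in WT and −0.25, −0.31, −0.02, and −0.03 in ∆Firre, so that WT 10 lay within the ∆Firre range and ∆Firre 8 and 9 stood lowest. Genes are not independent replicates, and all of these values come from the same 8 libraries. After each library was corrected for GC content with a spline, 391 genes (2.96%) were lower and 253 (1.92%) were higher, and 363 of the 1018 lower genes were among the 391. Genotype and the tilt of the libraries cannot be told apart in these samples, so the count after the correction is given beside the main groups below. The median exon length was 3405 bases in the lower genes, 3292 in all, and 1456 in the higher genes. Coding stretches of Mbd3, lower in ∆Firre, and Jchain, higher in ∆Firre, show the contrast with G and C in capitals. They are the first 120 bases of the longest coding exon of each gene on NCBIM37, on the minus strand, at chr10:79857911-79858030 and chr5:88950432-88950551.
Mbd3: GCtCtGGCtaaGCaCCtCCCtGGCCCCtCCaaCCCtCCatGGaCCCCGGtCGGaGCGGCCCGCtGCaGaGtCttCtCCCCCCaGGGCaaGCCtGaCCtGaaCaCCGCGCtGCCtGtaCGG
Jchain: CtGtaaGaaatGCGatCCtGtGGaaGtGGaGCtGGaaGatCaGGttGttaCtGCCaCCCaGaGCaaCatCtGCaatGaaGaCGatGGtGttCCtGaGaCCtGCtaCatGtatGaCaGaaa
Of these bases 83 are G or C in Mbd3 and 57 in Jchain, and over all exons the GC content was 63.1% and 40.0%.

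**Figure D2:**
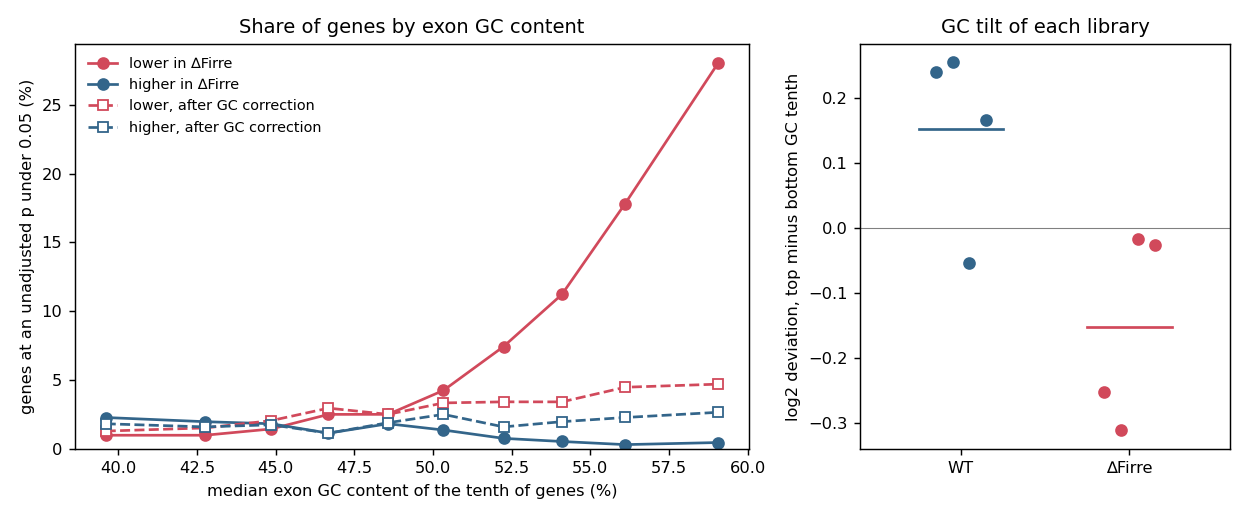
Left, percent of genes at an unadjusted p under 0.05 (vertical axis) in 10 bins of genes ordered by exon GC content (horizontal axis, median of each bin in percent), for genes lower and higher in ∆Firre, before and after the GC correction. Right, GC tilt of each library in log2 units, with lines for group means. The share of lower genes climbs from 0.985% to 28.0% before the correction, and 1 WT library lies among the ∆Firre libraries on the right.

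Among lists with at least 5 lower genes, the NuRD list had the highest share of them, at 32.1%. All lists were chosen with earlier results of these data known. Ctbp1, a member of this list, is among the genes that the study reported as lower in ∆Firre, so the rank is not an independent result. The NuRD complex joins a histone deacetylase to a nucleosome-remodeling ATPase and, with the CtBP corepressors, silences genes during lineage choice. Of 28 of its genes tested, 9 were lower at an unadjusted p under 0.05 and none was higher, against 7.16% of all genes, with a median of −0.11 and a median exon GC content of 51.0%. The count was 5 without WT 10 or ∆Firre 8 and 4 without WT 11 or ∆Firre 9, and 3 (10.7%, against 2.96% of all genes) were lower after the GC correction. Mbd3, the methyl-CpG-binding domain subunit, was at 119, 121, 104, and 103 TPM in WT against 58.8, 57.1, 74.3, and 73.9 TPM in ∆Firre, with every ∆Firre library below every WT library. Its difference was −0.75 (standard error 0.11, limma adjusted p = 0.303), −0.74 and −0.76 within the ranges, and −0.43 after the GC correction (unadjusted p = 0.0014). Mta1, another subunit, was at 145, 157, 138, and 149 TPM and 113, 106, 120.4, and 134 TPM, and Ctbp1 was at 149, 165, 132, and 128 TPM and 101, 110.4, 115, and 117 TPM, again without overlap. After the correction their differences were −0.13 and −0.19, with unadjusted p-values of 0.123 and 0.0775. The deacetylase subunits Hdac1 and Hdac2 differed by −0.05 and −0.01, and Mbd2, which takes the place of Mbd3 in a separate form of the complex, by −0.02 (95% interval −0.22 to 0.18). The ATPase subunits Chd4 and Chd3 differed by −0.21 and −0.28.

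Enzymes and readers of histone marks were also lower in part. Of 83 tested, 21 (25.3%) were lower and none was higher, and 4 (4.82%) were lower after the GC correction, against 7.16% and 2.96% of all genes. Without WT 10, ∆Firre 8, or ∆Firre 9 the count was 11. Kmt5c, a histone H4 lysine methyltransferase, was at 34.9, 39.3, 38.2, and 44.3 TPM in WT against 26.8, 28.8, 31.6, and 26.8 TPM in ∆Firre. Ehmt2, the histone H3 lysine methyltransferase G9a, was at 75.5, 88.3, 76.1, and 75.9 TPM and 52.4, 45.4, 69.4, and 57.5 TPM. Brd3, a reader of acetylated histones, was at 83.1, 87.1, 99.1, and 86.4 TPM and 68.1, 65.5, 73.3, and 73.9 TPM. Their differences of −0.45, −0.50, and −0.34 went to −0.22, −0.24, and −0.26 after the correction, and none passed an adjusted limma p of 0.1. Of 42 CTCF, cohesin, and Polycomb genes, 3 were lower (7.14%, against 7.16% of all genes), and none was without ∆Firre 8. Of 36 clustered histone genes, whose exons have a median GC content of 57.7%, none was lower, and 5 were without WT 8. Of these 36, 13 had a mean of at least 10 reads. Their median difference was −0.30, against −0.01 over all 36, so most of the list rested on few reads.

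**Figure D3:**
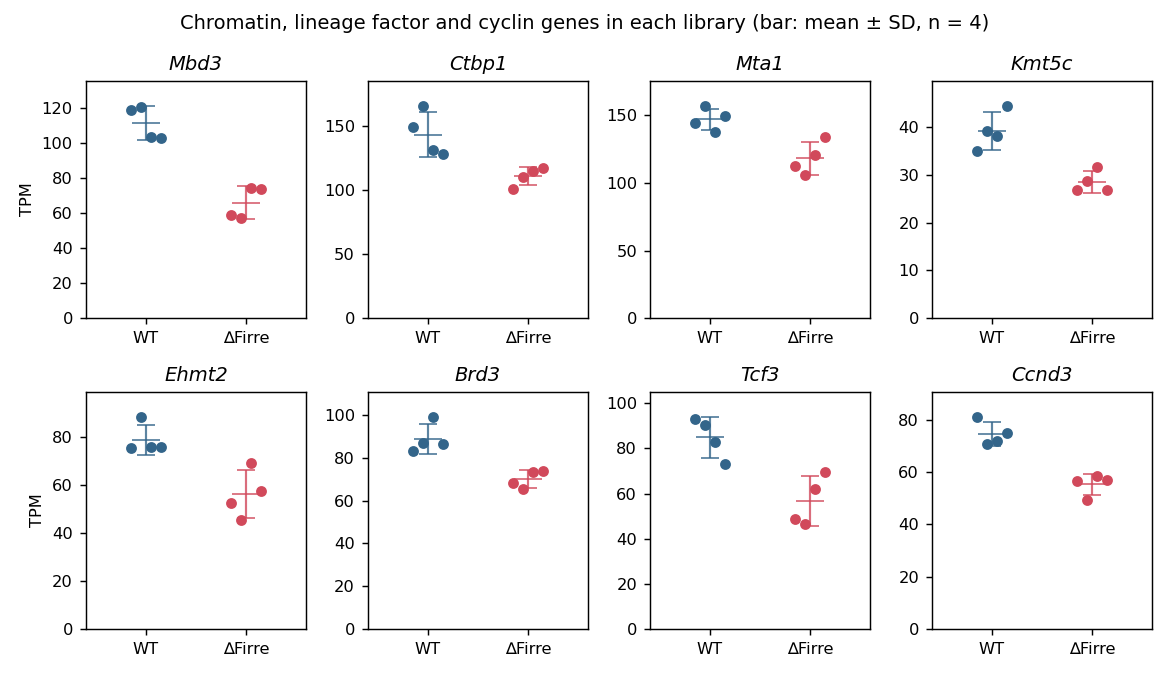
Levels in TPM (vertical axes, from 0) of 8 nuclear and cell cycle genes in the 4 WT and 4 ∆Firre libraries. Points are libraries, and bars show the mean ± SD. In all 8 genes every ∆Firre library lies below every WT library, and in Tcf3 the nearest libraries are 73.1 TPM in WT and 69.7 TPM in ∆Firre.

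Of 18 sort and lymphoid progenitor genes, none was higher or lower at an unadjusted p under 0.05, with a median of −0.02, and 2 were lower without ∆Firre 12. The recombinase genes Rag1 and Rag2, which cut antigen receptor genes, differed by 0.13 and −0.01, Dntt, which adds bases at the joints, by 0.01, and Ly6d, a marker of B-biased CLPs, by −0.12. Of 23 B-lineage transcription factor genes, 3 (13.04%) were lower and none was higher, against 7.16% of all genes lower, and 1 (4.35%) was lower after the GC correction, against 2.96%. Tcf3, which encodes the E2A proteins that start the B-cell program, was at 93.1, 90.6, 82.7, and 73.1 TPM in WT against 48.5, 46.7, 62.1, and 69.7 TPM in ∆Firre (difference −0.59, limma adjusted p = 0.427). Its exons are 60.8% GC, and the corrected difference was −0.32 (unadjusted p = 0.0206). Lyl1, a partner of E proteins, was at 149, 171, 128, and 144 TPM and 81.2, 84.4, 118, and 99.7 TPM (difference −0.63, −0.32 after the correction). Ebf1 and Pax5, which act after E2A, differed by −0.04 (95% interval −0.47 to 0.39) and −0.19 (95% interval −0.69 to 0.31). Of 25 cyclin, kinase, and inhibitor genes of the D cyclin group, 1 (4%, against 7.16% of all genes) was lower and was also lower after the GC correction. It was Ccnd3, the D cyclin that early lymphocytes need to divide, at 81.0, 70.8, 71.9, and 74.9 TPM and 56.6, 49.2, 58.5, and 56.9 TPM (difference −0.43, limma adjusted p = 0.415, −0.18 after the correction). Of 28 Jak-Stat genes, which carry the IL-7 signal, 4 (14.3%, against 7.16% of all genes) were lower, 1 without ∆Firre 8, 2 without any one of ∆Firre 9, WT 6, or WT 11, and none after the GC correction. Stat5b among them was at 91.1, 78.7, 73.8, and 82.2 TPM and 64.5, 69.5, 73.4, and 69.7 TPM.

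Markers of other lineages overlapped between the groups. Natural killer cell markers summed to 338 to 723 TPM in WT and 414 to 638 TPM in ∆Firre, T cell markers to 121 to 184 and 116 to 148 TPM, type 2 innate lymphoid cell markers to 121 to 157 and 121 to 163 TPM, and plasmacytoid dendritic cell markers to 329 to 451 and 337 to 382 TPM. Basophil and neutrophil genes varied by library instead. The 6 basophil or mast cell markers summed to 8998, 1052, 1792, and 2779 TPM in WT and 4305, 3229, 2978, and 2920 TPM in ∆Firre, and over the 22 basophil and mast cell genes tested the median difference was 0.78 in one range of libraries and −0.57 in the other. None of them was higher with all 8 libraries, and 10 were without WT 6. Neutrophil granule genes went the other way, with medians of −1.64 and 1.22. Of 20 type 2 innate lymphoid genes, 1 was higher, against 1.6% of all genes, the costimulatory receptor gene Icos at 28.6, 27.1, 24.1, and 37.3 TPM in WT against 36.6, 43.7, 37.6, and 45.8 TPM in ∆Firre (difference 0.48, limma adjusted p = 0.435). Of 17 erythroid genes, 2 (11.8%) were higher, 4 without WT 10 or ∆Firre 8 and none without any of the other 6 libraries, with a median of −0.03 in one range and 0.67 in the other. Of 26 stem and multipotent progenitor genes, none was higher or lower.

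**Figure D4:**
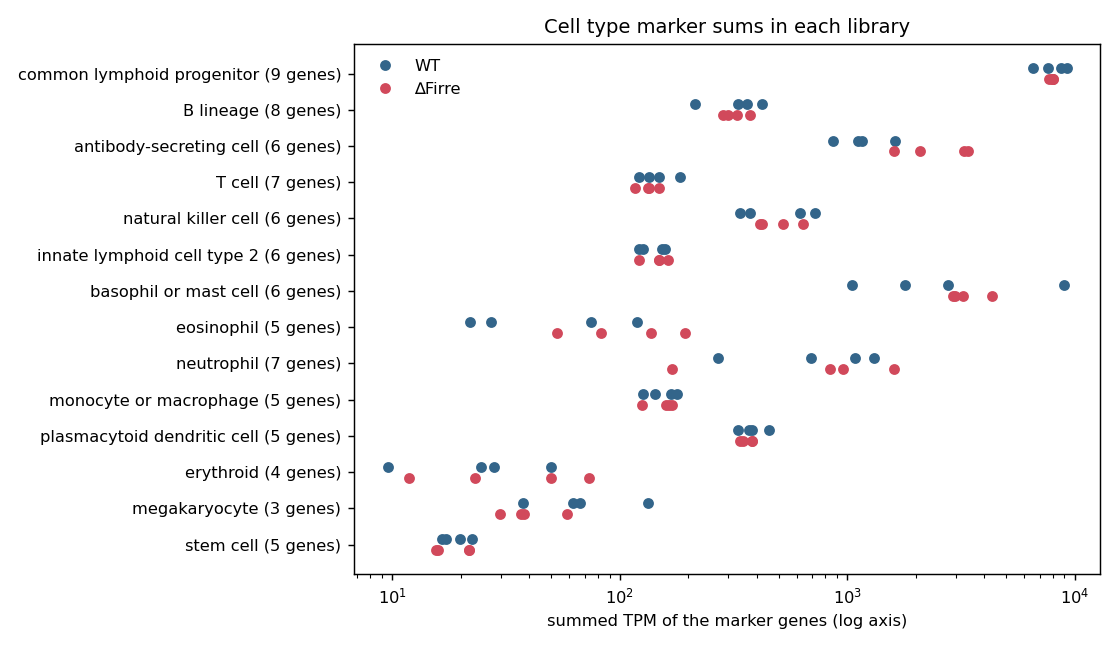
Summed TPM of the marker genes of 14 cell types (horizontal log axis) in the 4 WT and 4 ∆Firre libraries, each point 1 library. The groups overlap in every row. In the antibody-secreting row, 1607 TPM in the lowest ∆Firre library lies below 1622 TPM in the highest WT library.

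Part of the heat shock list was lower, with a GC content below that of all genes. Heat shock proteins are chaperones that fold other proteins, and the factor Hsf1 switches on their genes. Of 37 tested, with a median exon GC content of 47.2%, 8 (21.6%, against 7.16% of all genes) were lower and none was higher, and 5 (13.5%) were lower after the GC correction, against 2.96% of all genes. Fkbp4, a cochaperone of Hsp90, was at 289, 255, 259, and 248 TPM in WT against 210.2, 166, 196, and 189 TPM in ∆Firre (difference −0.47, standard error 0.09, limma adjusted p = 0.406, −0.31 after the correction). Hsf1 was at 50.6, 56.1, 54.6, and 60.9 TPM and 42.5, 35.2, 48.8, and 36.2 TPM, and Stip1, which passes clients from Hsp70 to Hsp90, at 355, 344, 399.8, and 319 TPM and 308, 214, 291, and 301 TPM, both without overlap. Hspa8, the constitutive Hsp70, was at 1370.2, 1165, 1254, and 1023 TPM and 1134, 827, 941, and 874 TPM, with ∆Firre 8 inside the WT range. The list did not move alike in the 2 ranges of libraries, with medians of −0.04 and −0.24, and without ∆Firre 9 the count was 5. Chaperones of the endoplasmic reticulum were mixed, with 8 of 63 genes (12.7%) lower and none higher as deposited. After the GC correction 6 (9.52%) were lower and 3 (4.76%) higher, where 1.92% of all genes were higher. By median ratio 4 were lower and 6 higher, against 3.99% and 3.13% of all genes. Calr, a calcium-binding chaperone, was at 993, 824, 952, and 752 TPM and 695, 690.0, 743, and 678 TPM.

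Counts of signaling and trafficking genes are set against 7.16% of all genes lower as deposited and 2.96% after the GC correction. Of 35 PI3K, Akt, and mTOR genes, 9 (25.7%) were lower as deposited and 1 (2.86%) after the correction, and with 1 library left out the count was as low as 1 without ∆Firre 8, 2 without ∆Firre 9, 3 without WT 8, 4 without WT 6, and 5 without WT 11. The remaining gene was Eif4ebp1, the translation inhibitor that mTOR acts on, at 44.0, 64.1, 43.3, and 37.9 TPM in WT against 37.6, 26.3, 25.5, and 22.7 TPM in ∆Firre (difference −0.73, −0.55 after the correction). Of 39 Ras and MAP kinase genes, 6 (15.4%) were lower and 1 (2.56%) after the correction. Dusp1, a phosphatase that shuts MAP kinases off, was higher at 4.84, 2.11, 3.99, and 5.24 TPM in WT against 5.63, 7.66, 6.86, and 9.27 TPM in ∆Firre (difference 0.76, limma adjusted p = 0.489). Of 28 Wnt genes, 5 were lower, 2 without ∆Firre 8 or ∆Firre 9, 3 without WT 8, and 1 after the correction. Of 76 vesicle trafficking genes, 14 (18.4%) were lower, and 5 (6.58%) after the correction. Rab1b, a GTPase between endoplasmic reticulum and Golgi, was at 122, 139, 109, and 121 TPM and 101, 78.0, 92.0, and 83.2 TPM.

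RNA processing genes are of interest because Firre binds hnRNP U. Of 50 hnRNP and SR protein genes, 8 (16%) were lower and 3 (6%) after the GC correction, against 7.16% and 2.96% of all genes, with a median of −0.02, above that of all genes. The count was 4 without WT 6 or ∆Firre 9 and 5 without WT 8, WT 10, or ∆Firre 8. By median ratio it was 2, where 3.99% of all genes were lower. Hnrnpm was at 304, 282, 332, and 276 TPM in WT against 257, 256.3, 259, and 258 TPM in ∆Firre, and Srsf4, a splicing activator, at 96.0, 107, 104, and 96.8 TPM and 71.2, 77.1, 85.4, and 89.2 TPM. Hnrnpu itself differed by −0.01 (95% interval −0.16 to 0.14). Of 63 core spliceosome genes, 10 (15.9%) were lower, 5 without ∆Firre 9, 6 without WT 8, and 6 (9.52%) after the correction. Dhx38, a spliceosomal helicase, was at 43.4, 55.4, 45.9, and 41.3 TPM and 27.2, 26.4, 33.1, and 35.1 TPM (difference −0.60, standard error 0.13, limma adjusted p = 0.427, −0.42 after the correction).

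Growth and metabolism lists ranged from no lower gene among 27 of the tricarboxylic acid cycle to 16.7% of 30 glycolysis genes, against 7.16% of all genes. The 5 lower glycolysis genes became 1 without WT 8, ∆Firre 8, or ∆Firre 9, 3 without WT 11 or ∆Firre 12, and 1 after the GC correction. Of 83 cytosolic ribosomal protein genes, 8 were lower and 1 was higher, with a median of 0.02. The split was 4 lower and 4 higher after the GC correction, 4 lower and 6 higher by median ratio, and 8 lower and 8 higher with limma-voom. The lower count was 4 without WT 6, WT 11, or ∆Firre 9 and 5 without ∆Firre 11. Rpsa, of the small subunit, was at 2283, 2328, 2108, and 2317 TPM in WT against 1818, 1677, 1793, and 2005 TPM in ∆Firre. Of 77 nuclear-encoded respiratory chain genes, 6 were lower, with 13 lower without ∆Firre 8 and 10 without WT 10, and 2 were higher, and after the GC correction 1 (1.30%) was lower and 3 were higher. At an unadjusted p of 0.05, none of the 13 genes of mitochondrial DNA passed. Of these 13, 11 leaned higher, and with limma-voom on the recovered reads 6 were higher, against 2.56% of all genes. Of 54 DNA replication genes, 5 were lower, 8 without ∆Firre 8, 2 without WT 10, and 3 after the GC correction. Of 55 interferon response and MHC class I genes, 6 (10.9%) were lower, and 3 (5.45%, against 2.96% of all genes) after the GC correction and 3 by median ratio. Among the 6 was the peptide transporter gene Tap2, at 122, 168, 116, and 120.4 TPM and 82.5, 89.2, 112, and 96.8 TPM. Of all 76 gene lists examined, 28 held no lower gene.

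**Figure D5:**
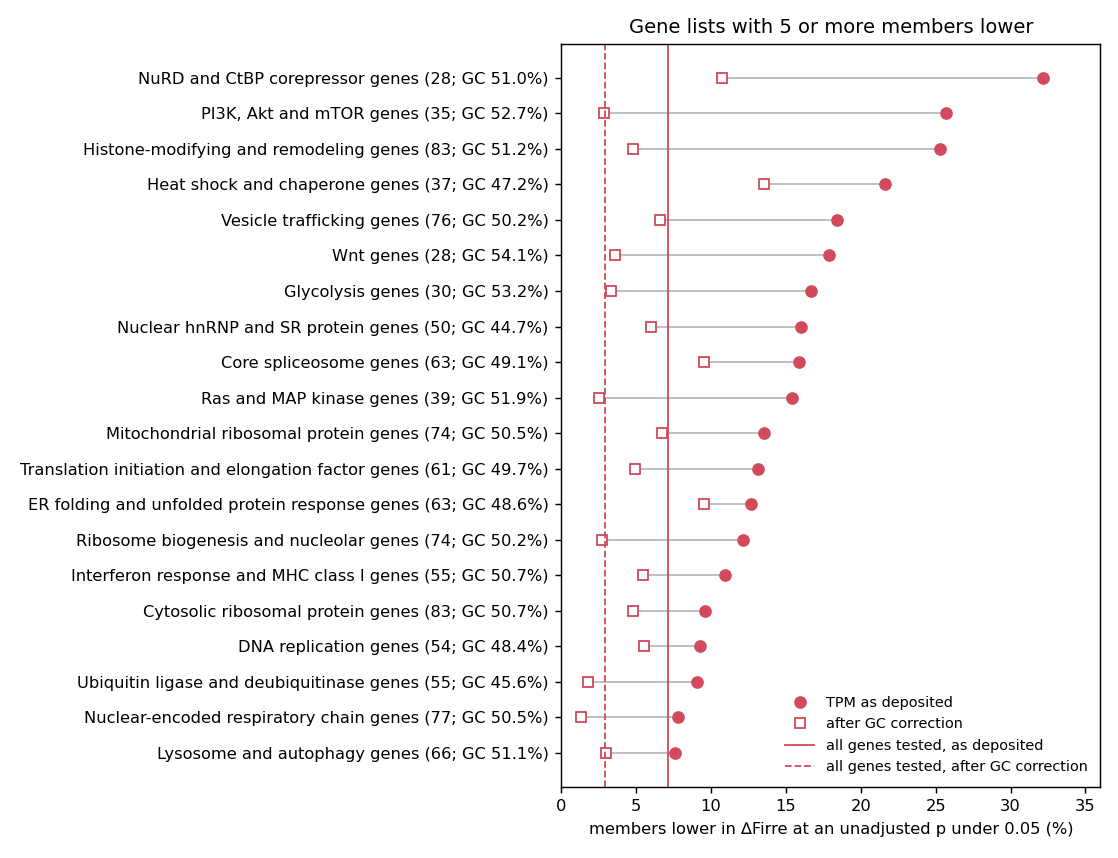
Percent of the members tested that were lower in ∆Firre at an unadjusted p under 0.05 (horizontal axis) in 20 gene lists with 5 or more lower members, as deposited (filled) and after the GC correction (open). The number tested and the median exon GC content stand beside each name, and lines mark all genes, 7.16% and 2.96%. The open points of the NuRD, heat shock, spliceosome, and endoplasmic reticulum lists lie farthest right, between 9.52% and 13.5%.

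The largest negative differences are given here by gene, and whether these genes are related was not tested. After Firre, the lowest among named genes with a mean of at least 5 TPM and no overlap were the transcripts AC102570.1, Mir142, and Tmem273 and the transcription factor gene Foxp4. Foxp4 was at 12.9, 17.7, 14.5, and 13.2 TPM in WT against 5.66, 5.21, 9.80, and 9.06 TPM in ∆Firre (difference −0.92, −0.60 after the GC correction). Cc2d1a, a signaling scaffold gene, was at 15.9, 17.6, 18.6, and 13.7 TPM and 8.18, 7.55, 10.2, and 9.05 TPM (difference −0.84, standard error 0.15, limma adjusted p = 0.406), and Top1mt, the mitochondrial DNA topoisomerase, at 16.9, 21.96, 26.0, and 15.8 TPM and 12.2, 9.37, 6.42, and 14.6 TPM. The others were Gm9769, Gm11425, and C1qtnf6, with differences of −0.91, −0.89, and −0.83. By chromosome, lower genes made up 14.2% of the 668 genes tested on chromosome 17 and 2.26% of the 487 on chromosome X, against 7.16% of all genes. The median exon GC content of these genes was 52.7% and 45.3%, and after the GC correction 4.04% and 1.03% were lower, against 2.96%.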

How the data were processed

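CLP libraries were made by the authors from poly(A)+ RNA with a template-switching kit, trimmed with cutadapt, aligned to mm10 with TopHat2 (version 2.1.1), and counted per gene with featureCounts. The deposited values are TPM computed by the authors. Whole reads were recovered from the steps between low TPM values for 99.98% of the 144001 values examined (tolerance 0.05 of a read). Of 25274 genes given a length, 13551 kept that of the annotation. The others took the shortest length that made their reads whole, so the 99.98% is in part set by the fit. Depth is thus an estimate. Of the 12 libraries, 4 WT and 4 ∆Firre were used, grouped by their labels.

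Genes with a mean of at least 1 TPM over the 8 libraries were tested on log2(TPM + 1) with limma (version 3.58.1, R 4.3.3) with a trend, and p-values were adjusted over all genes by the Benjamini-Hochberg method. A fold change on this scale understates the change of low genes. Tests ask whether group differences exceed the spread between mice. An adjusted p of 0.1 called a gene, and an unadjusted p of 0.05 was used to describe lists, for which no test was run. GC content and length came from the exons of the NCBIM37 annotation for 13196 of the genes, and the correction removed a spline on GC content (4 degrees of freedom) from each library. Named genes were the 10 largest in each direction with a mean of at least 5 TPM and no overlap, and up to 3 genes per list and direction, and other list members were named after their values were seen. Names of 216 genes, among them Igha and the antibody variable genes, came from the name columns of the study's supplementary tables, which are partial and ordered by its results, and 1235 genes stayed unnamed. The members and the gene lists were chosen with earlier results of these data known. Scripts were tested on simulated data. The alternatives were other scaling, pseudocounts, filters, voom on the recovered reads, all 12 libraries, blocks, GC and length correction, and leaving out each library. The result of 1 gene list is not reported here.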

Additional observations from a re-analysis of the deposited data

Results flagged for a closer look

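In 5 of 53 sets of 4 libraries, 1 library lay far from the others of its group, where chance gives about 2.65. Ighv1-64 was at 5.48 in WT 8 on the log2(TPM + 1) scale and between 1.03 and 1.43 in the other WT libraries. Igkj5 was at 0 in WT 8 and between 5.22 and 6.15 in the others. RP23-477O13.1 was also at 0 in WT 8, against 2.05 to 2.45. Scarna3a was at 2.002 in WT 6 and at 0 in the other WT libraries. In ∆Firre 8, 19098 genes were above 0, against 17910 to 18009 in the other ∆Firre libraries.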

How the results depend on the processing

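The 2 called genes became 1 with limma-voom, no filter, no trend, a robust trend, or an adjusted p of 0.05, 0 with the replicate block, and 1 to 5 with a library left out. With the GC correction 1 gene was called, and 15 with the block added, but Ighv1-69 has no GC value and was not in those fits. The 234 higher genes became 375 with voom, 458 by median ratio, 401 by quantile normalization, 374 without a filter, 154 at a mean of at least 5 TPM, and 193 to 354 with a library left out. The 1048 lower genes became 618 with 12 libraries in the fit, 618 with the length correction, 391 with the GC correction, 191 with that correction and the block, 585 by median ratio, 657 by quantile normalization, 301 with the block, and 716 to 1111 with a library left out. Firre kept its direction in every alternative and was past the threshold except with the block (−5.00) and within each range (−5.00 and −4.74). The labels share only mouse numbers 8 and 11 between the groups, and same-numbered libraries had correlations of −0.0385 and −0.0391, so that the numbers were not taken as pairing. Differences with the block therefore rest on WT 8, WT 11, ∆Firre 8, and ∆Firre 11 alone, and they equal those within the first range. Over all alternatives, 2858 values of single named genes kept their direction and side of the threshold, 13 were no longer past it, and 4 newly were. Of the medians of lists, 1812 stayed within the spread between libraries and 164 moved beyond it. Depth limits the genes with few reads, such as the small RNAs.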
